A study of Musa balbisiana with 10 samples.

Results

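Of 27929 transcribed regions measured in every library of Klutuk Wulung banana pulp, 1018 kept nearly the same level with and without ethylene and on both days. The stretches of the genome that the tables listed as loci of at least 300 bp were pooled over the 10 tables, and overlapping stretches on a chromosome were merged, which gave 30802 regions. The level of a region was the sum of the FPKM (fragments counted on a transcript, divided by its length and by the mapped fragments of the library) of its loci in a library. The members were chosen by their values: a mean FPKM from 10 to under 500 over the 10 libraries, and less than 0.4 between the highest and the lowest of the 4 group means of log2(FPKM + 1). They made up 13.1% of the 7747 regions in that FPKM range and 3.64% of all regions with a row in every table, and the other 6729 regions of the range are the comparison below.

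Klutuk Wulung is a cultivar of *Musa balbisiana* with the genome group BB. Its fruit was kept without ethylene as a control, or was exposed to 100 µl/L ethylene gas in a glass container, and pulp was taken on day 1 and day 7 of ripening. The 10 libraries were 2 control and 2 ethylene-treated on day 1, and 3 control and 3 ethylene-treated on day 7. The study calls them biological replicates, and the labels do not say which fruit or bunch each came from, so every p-value measures only the spread between these libraries. Replicate A of both control days and of ethylene day 7 was sequenced single-end, as the study marks it, and the other 7 libraries were paired-end. Ethylene day 1 had no single-end library. The tables give no gene products, so the labelled tissue was not checked against marker genes, and fewer cells of a type cannot be told apart from less RNA per cell in pulp.

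Banana is a climacteric fruit, in which a rise of ethylene starts a programme that converts starch to sugar, softens the cell wall and changes pulp and peel. Such a programme changes a large part of the transcriptome, while genes for the basic upkeep of a cell are often read as references because their transcripts vary little. FPKM is scaled to the mapped fragments of each library, so a level that stays the same is not necessarily constant per cell. It is not a constant share of the summed FPKM either. That sum over all regions was 349403 to 369868 in the control libraries and 431577 to 487900 in the ethylene-treated ones.

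The closest group means belonged to a region on chromosome 11. The region chr11:5563329-5585140 held the annotated identifiers Mba11_g06000.v1.1 and Mba11_g06010.v1.1, and its group means lay 0.0237 apart on the log2 scale. Its FPKM was 13.6 and 11.5 in control day 1 A and B, 12.2, 14.9 and 10.9 in control day 7 A, B and C, 12.2 and 13.01 in ethylene day 1 A and C, and 14.2, 11.2 and 11.9 in ethylene day 7 A, B and C. The 10 libraries ran from 10.9 to 14.9 with both ends in control day 7, and the 4 groups overlapped.

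The region with the next closest means was the single locus chr4:7530207-7541439, Mba04_g09510.v1.1, with a range of 0.0308. Its FPKM was 16.1 and 15.3 in control day 1 A and B, 15.5, 15.4 and 15.7 in control day 7 A, B and C, 12.9 and 19.5 in ethylene day 1 A and C, and 16.2, 15.3 and 15.7 in ethylene day 7 A, B and C. The other 8 libraries lay between 15.3 and 16.2, and the lowest and the highest value were the 2 ethylene day 1 libraries. Ethylene day 1 had a mean of 16.2 ± 4.71 (SD, n = 2) and control day 7 one of 15.5 ± 0.163 (SD, n = 3), so groups with like means had unlike spread.

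A pair of intervals without an annotated identifier followed, each overlapping 2 RefSeq gene models. The region chr4:34689725-34705942 had a range of 0.04202 and a mean FPKM of 17.1, and its libraries ran from 12.4 in ethylene day 7 B to 19.9 in ethylene day 7 C. The region chr1:39102539-39127265 was the most abundant of the 6, with a range of 0.0443. Its FPKM was 73.7 and 73.4 in control day 1 A and B, 73.2, 65.99 and 82.2 in control day 7 A, B and C, 79.1 and 72.4 in ethylene day 1 A and C, and 78.9, 70.6 and 78.3 in ethylene day 7 A, B and C. All libraries of this region lay between 65.99 and 82.2, a spread of 0.313 on the log2 scale, with both ends in control day 7 B and C.

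The last 2 of the 6 were chr8:34147107-34165370, with Mba08_g20080.v1.1, and chr2:30465402-30473064, with Mba02_g20550.v1.1. The first had a range of 0.0445 around a mean FPKM of 10.03, and ethylene day 7 held both its highest value, 12.1 in A, and its lowest, 7.33 in B. The second was 1 locus in every library with a range of 0.0482, and its FPKM was 32.3 and 22.9 in control day 1 A and B, 31.04, 25.2 and 26.9 in control day 7 A, B and C, 28.3 and 26.7 in ethylene day 1 A and C, and 31.8, 27.1 and 25.8 in ethylene day 7 A, B and C. Here the 3 single-end libraries, from 31.04 to 32.3, were above all 7 paired-end ones, which ran from 22.9 to 28.3. The difference was 0.31 (SE 0.10, adjusted p = 0.137) on the log2 scale by limma and did not pass the threshold of 0.05. Of these 6 regions, 5 stayed members whichever library was left out, and chr8:34147107-34165370 did in 5 of the 10 cases. In its other cases the range stayed under 0.4, and the mean FPKM, 10.03 over all libraries, fell below the lower limit of 10. The order among the 6 was not fixed: with 1 library left out their ranges reached 0.124, 0.313, 0.175, 0.124, 0.243 and 0.288 in the order given here, and with median-of-ratios scaling all 6 lay between 0.235 and 0.297. The range of chr4:7530207-7541439 was 0.313 when A and 0.268 when C was removed from ethylene day 1.

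**Figure D1:**
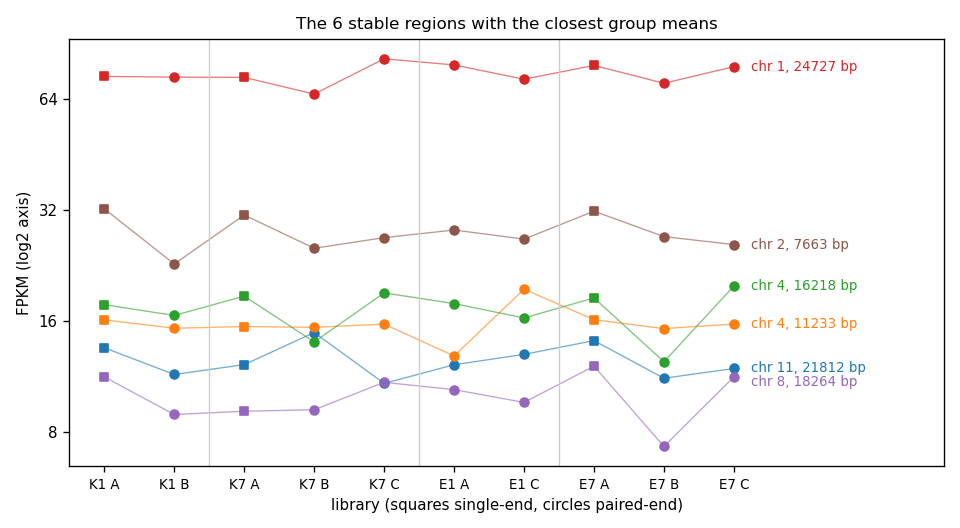
FPKM (log2 axis) of the 6 stable regions with the closest group means in the 10 libraries (K control, E ethylene, then day and replicate), with squares for single-end and circles for paired-end libraries and grey lines between groups. The region on chromosome 1 stayed between 65.99 and 82.2, and the single locus on chromosome 4 had its lowest and highest value in ethylene day 1.

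The members as a whole had a median mean FPKM of 18.96, with quartiles of 13.8 and 28.2 and a highest value of 234. The highest minus the lowest group mean had a median of 0.298, was under 0.2 for 169 members and was at least 0.3 for 498, so the list was fullest next to its limit. Just inside the limit stood chr5:35111609-35116523, chr4:4968640-5005928 and chr4:21649059-21664409, with ranges of 0.39994, 0.39986 and 0.39986. Just outside stood chr10:32775443-32779399, chr4:6165044-6176200 and chr4:39858107-39880846, with ranges of 0.40002, 0.40019 and 0.40073. The 3 inside had a mean FPKM of 10.6, 36.9 and 16.5 and the 3 outside one of 11.7, 28.6 and 28.3. The levels on the 2 sides overlapped, and the ranges ran on across the limit without a gap.

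Regions with a range under 0.4 were mostly of low abundance. Of 11015 such regions of any level, 9997 had a mean FPKM under 10, where the added 1 in log2(FPKM + 1) compresses differences, and none of the 62 regions whose mean FPKM reached 500 was among them. Low levels were common in any case: of all 27929 regions with a row in every table, only 7747 lay from 10 to under 500. Within the range of levels used here, members were 14.1% of regions with a mean FPKM of 10 to 20, 13.9% at 20 to 50, 9.01% at 50 to 100 and 5.91% at 100 to 500. Abundant stable regions were therefore few, with 24 of 406 above an FPKM of 100.

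The 3 most abundant members were very different in build. The region chr9:4326447-4611939 spanned 285493 bp with 47 RefSeq gene models and 44 to 66 loci per library, and its FPKM was 246 and 234 in control day 1 A and B, 317, 213 and 228 in control day 7 A, B and C, 222 and 213 in ethylene day 1 A and C, and 245, 202 and 219.9 in ethylene day 7 A, B and C. Its group means were 239.9 ± 8.31 (SD, n = 2), 253 ± 55.8 (SD, n = 3), 217 ± 7.04 (SD, n = 2) and 222 ± 21.7 (SD, n = 3) for control day 1, control day 7, ethylene day 1 and ethylene day 7, a range of 0.193 on the log2 scale. The value of 317 in control day 7 A stood above all others. The region chr4:5500730-5776726 spanned 275997 bp with 37 gene models, had a mean FPKM of 229.9 and a range of 0.388, and its 2 ethylene day 1 libraries, at 185 and 200.4, were below the other 8.

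The third was a single locus, chr3:11976049-11982716, at the gene model C4D60_Mb03t14440. Its FPKM was 216 and 203 in control day 1 A and B, 276, 187 and 236 in control day 7 A, B and C, 188 and 182 in ethylene day 1 A and C, and 217, 186 and 192 in ethylene day 7 A, B and C. It had the highest mean FPKM of all members made of 1 locus in every library, 208, and the groups overlapped except that both ethylene day 1 libraries were below both control day 1 libraries. At the other end, chr1:20907968-20914314, chr8:32719576-32732105 and chr8:37193128-37194149 had a mean FPKM of 10.01, 10.03 and 10.03. The last of these, Mba08_g23390.v1.1, spanned 1022 bp and ran from 4.29 in control day 1 A to 16.2 in control day 1 B, although its group means lay only 0.299 apart.

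The share of members was higher among longer regions. Members were 3.24% of regions spanning under 2.5 kb (18 of 556), 9.43% at 2.5 to 5 kb, 13.7% at 5 to 10 kb, 15.5% at 10 to 20 kb, 16.3% at 20 to 50 kb and 19.9% at 50 kb or more (30 of 151). The median span was 10328.5 bp in members and 8296 bp in the other regions of the same level. The order also held among regions with 1 locus in every library, where the share was 3.25% under 2.5 kb, 9.62% at 2.5 to 5 kb, 15.9% at 5 to 10 kb and 16.9% at 10 kb or more. The median within-group SD of all regions of the level was 0.301 under 2.5 kb. From 0.221 at 2.5 to 5 kb it rose through 0.238, 0.288 and 0.331 to 0.382 at 50 kb or more. Group means at least 1 apart were found in 68.7% of regions under 2.5 kb and in 31.8% of those of 50 kb or more. These shares describe how the list was made up and carry no test, since the group means chose the members.

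**Figure D2:**
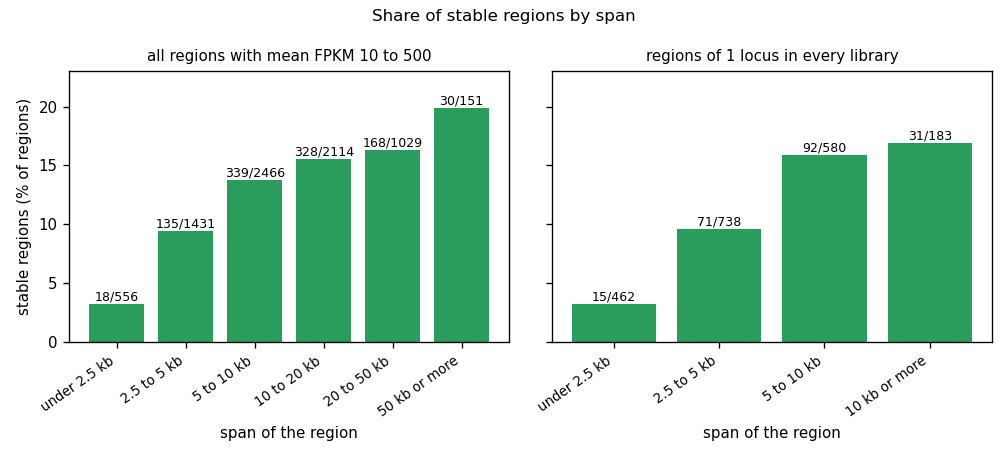
Stable regions as a percentage of regions with a mean FPKM of 10 to 500, by the span of the region, for all regions (left) and for regions with 1 locus in every library (right), with the number of stable regions and of regions above each bar. The share went from 3.24% under 2.5 kb to 19.9% at 50 kb or more, and from 3.25% to 16.9% among regions of 1 locus.

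Members were spread along the genome. On the 11 chromosomes they were 12.3% (chromosome 3) to 14.7% (chromosome 5) of the regions of the same level, and on unplaced scaffolds 5.11%, or 12 of 235. Of the 335 members whose next region was also of that level, 52 (15.5%) were followed by another member, beside 12.6% of the other regions, and the longest run was 3 members, on chromosome 1. On the 9 chromosomes where RefSeq gene spans match the tables, 833 members held 0 gene models in 5 cases, 1 in 544 (65.3%), 2 in 200 (24.01%) and 3 or more in 84 (10.1%). The other regions there had 67.1% at 1 gene model, 22.5% at 2 and 8.29% at 3 or more. A region with no gene model was less often on the list, with 0.6002% of members and 2.16% of the others (116 of 5369), so that members were 4.13% of such regions and 13.1% to 15.96% of those with gene models.

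Members held an annotated identifier about as often as the other regions of the same level, 28.9% and 30.1%. Of the 1018 members, 724 held no annotated identifier in any table, 248 held 1 and 46 held 2 or more, and the tables name the other loci by numbers that Cufflinks gave in each library. A region without an identifier can still overlap RefSeq gene models, which only 5 of 833 members on the matched chromosomes did not. An annotated identifier was listed in all 10 tables in 34 cases inside members, and 9 of these had a mean FPKM of at least 1. Of these 9, 6 were members by themselves, as single annotated loci. Mba05_g03340.v1.1 (chr5:2603843-2607228) had the closest group means of the 6, 0.211 apart, with an FPKM of 27.7 and 24.4 in control day 1 A and B, 26.5, 21.2 and 25.2 in control day 7 A, B and C, 27.7 and 28.6 in ethylene day 1 A and C, and 28.4, 23.6 and 25.9 in ethylene day 7 A, B and C. All its libraries lay between 21.2 and 28.6, with control day 7 B the lowest. Mba08_g04660.v1.1 (chr8:3635440-3636460) had group means 0.245 apart and an FPKM of 20.03 and 45.1 in control day 1 A and B, 26.5, 34.6 and 33.2 in control day 7 A, B and C, 24.7 and 27.8 in ethylene day 1 A and C, and 28.8, 27.5 and 24.9 in ethylene day 7 A, B and C, and here control day 1 held both the lowest and the highest library. Mba01_g08520.v1.1, Mba11_g20220.v1.1, Mba09_g23270.v1.1 and Mba11_g20600.v1.1 had ranges of 0.348, 0.352, 0.3703 and 0.394 at a mean FPKM of 23.7, 17.1, 17.2 and 12.8.

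The other 3 of these 9 genes lay inside larger members and were not stable themselves. Mba09_g06060.v1.1 and Mba09_g06290.v1.1, both within the 285493 bp region on chromosome 9, had group means 1.01 and 0.994 apart. Mba09_g06060.v1.1 had an FPKM of 3.21 and 4.14 in ethylene day 1 A and C, and of 5.81 to 9.67 in the other 8 libraries. Mba04_g34150.v1.1, within a member on chromosome 4 with a range of 0.2500, had one of 1.15 around a mean FPKM of 2.28.

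A stable sum could thus hold loci that were not stable. In 127 members with 2 or more loci, 202 loci were listed at the same coordinates in all 10 tables. Of these, 137 had group means under 0.4 apart, 65 had them at least 0.4 apart, 23 at least 1 apart and 7 at least 2 apart, and 4 of the 23 had a mean FPKM under 1. The 3 of the 7 with the highest mean FPKM are described here, chosen after their values were seen. Because the rule keeps the group means of the whole close, other loci must offset a locus that is a large part of its member. Such opposite values follow from the choice and are no finding.

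The locus chr7:31236835-31238777 had an FPKM of 0 and 0.368 in control day 1 A and B, 0, 0.593 and 0.555 in control day 7 A, B and C, 31.2 and 34.03 in ethylene day 1 A and C, and 15.6, 13.4 and 13.3 in ethylene day 7 A, B and C. All 5 ethylene-treated libraries were above all 5 control libraries, and its group means lay 4.84 apart. The member that contains it, chr7:31236835-31252563, had group means only 0.306 apart, and the sum of its other loci ran the opposite way. That sum had a mean FPKM of 39.6 in control day 1, 42.7 in control day 7, 16.7 in ethylene day 1 and 30.3 in ethylene day 7.

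The locus chr4:4807361-4813591, which overlaps the gene models C4D60_Mb04t05800 and C4D60_Mb04t05810, was lowest with ethylene on day 1. Its FPKM was 26.98 and 25.7 in control day 1 A and B, 19.6, 15.4 and 18.2 in control day 7 A, B and C, 4.46 and 4.70 in ethylene day 1 A and C, and 15.97, 12.9 and 11.7 in ethylene day 7 A, B and C. Both ethylene day 1 libraries were below the other 8. The rest of the member, which ends at 4818211, was listed at 0 in both control day 1 libraries and had a mean FPKM of 14.4, 26.4 and 17.5 in control day 7, ethylene day 1 and ethylene day 7, and the whole had a range of 0.228. The control day 7 mean of the rest came from 15.2 in A, 2.31 in B and 25.7 in C.

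The locus chr4:28321458-28334408 was listed at 0 in control day 1 A and B and control day 7 A, and ran from 9.82 to 16.8 in the other 7 libraries. Its member, chr4:28240973-28334408, had a range of 0.358, and its other loci had a mean FPKM of 18.9 in control day 1, 13.4 in control day 7, 4.75 in ethylene day 1 and 14.3 in ethylene day 7. That ethylene day 7 mean came from 28.5 in A, 6.21 in B and 8.06 in C. How many loci were assembled in a member differed between libraries, and the part of this in such opposite values was not tested.

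**Figure D3:**
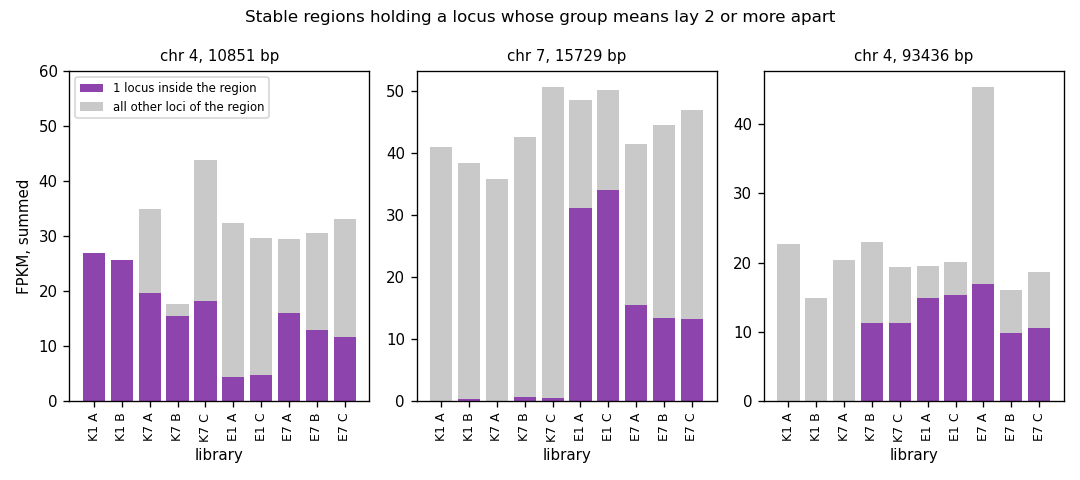
Summed FPKM by library (K control, E ethylene, then day and replicate) of 3 stable regions that hold a locus with group means at least 2 apart, with that locus in purple and all other loci of the region stacked in grey. In the region on chromosome 7 the purple locus was under 1 in the control libraries and at 31.2 and 34.03 in ethylene day 1, while the whole bar stayed between 35.8 and 50.7. The near-constant whole follows from the rule.

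The rule did not use the spread between replicates of a group directly, and that spread differed widely between members. The within-group SD of log2(FPKM + 1) had a median of 0.228 in members, from 0.0521 to 0.869, and of 0.272 in the other regions of the same level. At an FPKM of 10 to 20 the medians were 0.252 and 0.290, and at 100 to 500 they were 0.187 and 0.246. This is not fully separate from the rule, since regions with noisy libraries reach close group means less often. The highest and the lowest of the 10 libraries differed by less than 1 in 805 members (79.1%) and in 17.4% of the others. They differed by less than 0.4 in 52 members and by at least 2 in 6. The 10 libraries include the differences between groups, which the rule limited in members, so nothing is read from the contrast of these shares.

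The most even members within groups were not the ones with the closest means. The single locus chr7:7746191-7753959 had the smallest within-group SD of all members, 0.0521, and an FPKM of 12.6 and 13.9 in control day 1 A and B, 15.6, 16.1 and 15.8 in control day 7 A, B and C, 13.6 and 12.6 in ethylene day 1 A and C, and 12.1, 11.6 and 11.9 in ethylene day 7 A, B and C. Control day 7 lay above and ethylene day 7 below all the other libraries, and the group means were 0.3895 apart, so these groups did not overlap although they were within the limit. The region chr1:20956677-20977909 was similar, with an SD of 0.0534, ethylene day 1 at 9.64 and 10.1 as the lowest libraries, and ethylene day 7 at 12.4 to 13.5. The region chr2:24605647-24625790 had an SD of 0.05596 and 31.9 and 32.2 in ethylene day 1, below the 34.2 to 43.95 of the other 8 libraries. These 3 contrasts are among those that chose the members, so no test is given for them.

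The least even members had close means made of distant libraries. The region chr1:18134180-18138852, with Mba01_g23470.v1.1, had a within-group SD of 0.869 and an FPKM of 9.57 and 24.4 in control day 1 A and B, 10.9, 19.1 and 22.7 in control day 7 A, B and C, 21.6 and 13.2 in ethylene day 1 A and C, and 14.6, 51.8 and 9.41 in ethylene day 7 A, B and C. Ethylene day 7 B was more than 3 times both other libraries of its group, and the group means of log2(FPKM + 1) still lay only 0.321 apart. The region chr4:21649059-21664409 had an SD of 0.822, with 28.7 in control day 7 A and 44.2 in ethylene day 7 A, against 9.15 to 13.4 in the other 8 libraries. The region chr5:39278242-39316735 had one of 0.806, from 30.7 in control day 7 B to 128 in ethylene day 7 B. The first stayed a member in 1 of the 10 cases with a library left out, the second in 3 and the third in 6.

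Some pairs of replicates were closer than others. Over the members, the median absolute difference between replicates was 0.126 between ethylene day 7 B and C, 0.137 between ethylene day 1 A and C, and 0.235 to 0.274 for the other 6 pairs. Both close pairs were paired-end libraries of ethylene-treated fruit, and the third pair of 2 paired-end libraries, control day 7 B and C, stood at 0.241. The other regions of the same level had the same 2 closest pairs, at 0.142 and 0.151. The bounds that Cufflinks gives beside each FPKM were narrower than this spread, with the upper bound at a median of 1.06 to 1.07 times the FPKM in members of 1 locus. Of the 209 members of 1 locus in every library, none had bounds that shared a value over all 10 libraries, and the same was so for all 1754 such regions outside the list. The bounds of 2 replicates overlapped in 39.7% (control day 7 B and C) to 86.1% (ethylene day 7 B and C) of those 209 members.

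The rule keeps members near their own mean, so the closeness of each library to it describes the choice and is no finding. Between 83.5% (ethylene day 7 A) and 95.3% (ethylene day 1 C) of members lay within 0.4 of their mean over the 10 libraries, beside 35.6% (ethylene day 1 A) to 72.7% (ethylene day 7 C) of the other regions. The members' FPKM summed to between 25561 (ethylene day 7 B) and 29137 (control day 7 A). They took 7.15% to 7.88% of the FPKM of all regions in the control libraries and 5.49% to 6.51% in the ethylene-treated ones, with no overlap, so a near-constant sum was a smaller share of the ethylene-treated libraries. The 3 single-end libraries had the 3 highest sums, 28162, 29137 and 28932, against 25561 to 27703 for the 7 paired-end ones.

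**Figure D4:**
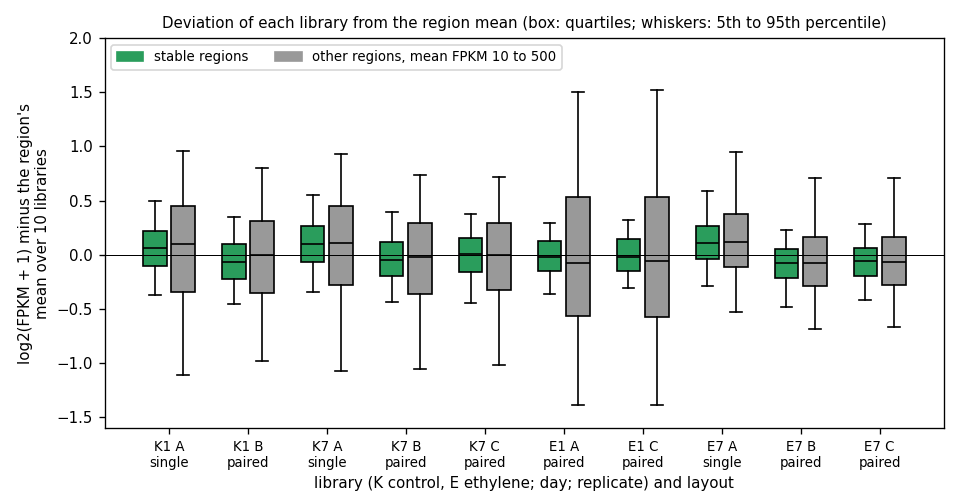
Deviation of log2(FPKM + 1) in each library from the mean of the region over 10 libraries, for the 1018 stable regions (green) and the 6729 other regions with a mean FPKM of 10 to 500 (grey), with boxes for the quartiles, lines for the median and whiskers from the 5th to the 95th percentile. The medians of the stable regions were above 0 in the 3 single-end libraries (0.066, 0.102 and 0.105) and at most 0.005 in the 7 paired-end ones. The narrower green boxes follow from the rule.

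Members were highest as often with ethylene as without it on day 1, but not on day 7. The highest group mean was control day 1 in 266 members, control day 7 in 294, ethylene day 1 in 264 and ethylene day 7 in 194, and the lowest was ethylene day 1 in 302 and control day 7 in 190. These counts describe the values that chose the members and carry no test. The median difference over members was −0.018 for ethylene day 1 minus control day 1, beside −0.239 over the 16821 regions whose mean FPKM reached 1. It was −0.035 for ethylene day 7 minus control day 7, 0.023 for control day 7 minus control day 1 and 0.0024 for ethylene day 7 minus ethylene day 1, beside −0.112, −0.018 and 0.106 over all regions. By the rule, members did not follow the lower FPKM that most regions had with ethylene on day 1. That lower level depends on scaling: with median-of-ratios scaling the median over all regions was −0.018 for ethylene on day 1, and the list then held 1055 regions, of which 632 (62.1% of the 1018) were shared with the list described here.

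In limma, none of the 1018 members passed an adjusted p of 0.05 (Benjamini-Hochberg) in any of the 4 group contrasts, which the rule had used and from which nothing is read. Over all 16821 regions tested, the share called was 41.9% for ethylene on day 1, 13.5% for ethylene on day 7, 1.31% for day 7 against day 1 in control fruit and 25.3% in ethylene-treated fruit. The members with an unadjusted p under 0.05 were 4, 14, 2 and 7 in the same order, beside 8466, 4929, 2121 and 6257 of all 16821 regions. With median-of-ratios scaling 53 members passed for ethylene on day 1, all higher, beside 3794 higher and 3295 lower of all 16821 regions. With quantile normalization 19 members did, all lower, beside 3158 higher and 3507 lower.

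Layout was a difference between libraries of 1 group that the rule did not choose on directly. It was not balanced over groups, so it entered the group means that chose the members. In a limma fit of group and layout, 18 members (1.77%) differed between single-end and paired-end libraries, 12 higher and 6 lower in single-end. The share over all regions tested was 1.8%, with 1.24% higher and 0.553% lower, so the members were called about as often as all regions tested. Of the other 6729 regions of the same level, 161 (2.39%) were called, and the difference from members was not tested. The median difference was 0.15 in members and 0.14 over all regions. The number depended on single libraries, in members as over all regions. With 1 day 7 library left out, 0 to 7 members and 38 to 127 of all regions passed, beside 302 regions with all libraries. No member passed after removal of replicate A of control day 7 or replicate C of ethylene day 7. Ethylene day 1 had no single-end library, so its libraries entered the layout test only through the estimate of spread. With median-of-ratios scaling 11 members passed, 2 higher and 9 lower in single-end libraries, and over all regions 61 were higher and 139 lower in place of 209 and 93, so the split turned with the scaling for all regions. All 3 single-end libraries are replicate A, so layout nearly coincides with the letter. With a replicate block by letter or by number, no member and 2 of the 16821 regions passed.

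Among the 4 members with the smallest p that were higher in single-end libraries, chr11:23147135-23156333, a single locus at C4D60_Mb11t16200, had an FPKM of 86.00 and 51.2 in control day 1 A and B, 81.99, 55.3 and 50.3 in control day 7 A, B and C, 76.6 and 74.2 in ethylene day 1 A and C, and 87.4, 59.2 and 59.03 in ethylene day 7 A, B and C. The 3 single-end libraries, at 81.99 to 87.4, were above the 7 paired-end ones, at 50.3 to 76.6, with a log2 difference of 0.63 (SE 0.094, adjusted p = 0.0262). The group means lay 0.298 apart. The region chr8:8500450-8508413, with C4D60_Mb08t10470, had 19.6, 18.7 and 16.02 in the single-end libraries and 5.33 to 9.596 in the others, a difference of 1.19 (SE 0.18, adjusted p = 0.0262). The regions chr7:13002750-13022736 and chr6:37604223-37613078 differed by 0.94 (SE 0.14, adjusted p = 0.0265) and 0.85 (SE 0.13, adjusted p = 0.0294). In chr7:13002750-13022736 the single-end value of control day 1 A, 15.5, was below the paired-end 17.7 of ethylene day 1 C, so the layouts overlapped there.

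Lower in single-end libraries, chr8:4772495-4799574, with Mba08_g06140.v1.1, had an FPKM of 16.7 and 23.8 in control day 1 A and B, 13.9, 24.1 and 29.2 in control day 7 A, B and C, 21.1 and 19.3 in ethylene day 1 A and C, and 17.1, 28.6 and 31.6 in ethylene day 7 A, B and C. Its single-end libraries were all below its paired-end ones, with a difference of -0.74 (SE 0.13, adjusted p = 0.0343). The regions chr2:16865044-16869213, chr6:39504064-39536861 and chr6:5714686-5718701 differed by -0.73 (SE 0.14, adjusted p = 0.0427), -0.71 (SE 0.14, adjusted p = 0.0431) and -0.55 (SE 0.11, adjusted p = 0.0477). The last, a single locus at C4D60_Mb06t07070, had 32.3, 32.9 and 31.7 in the single-end libraries and 41.2 to 54.7 in the paired-end ones, without overlap. Each of these 8 regions passed the threshold in 4 to 9 of 19 alternative fits, and the sign turned in none. With a replicate block their adjusted p was 0.661 to 0.912, with differences of −1.02 to −0.48 and 0.57 to 1.25.

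**Figure D5:**
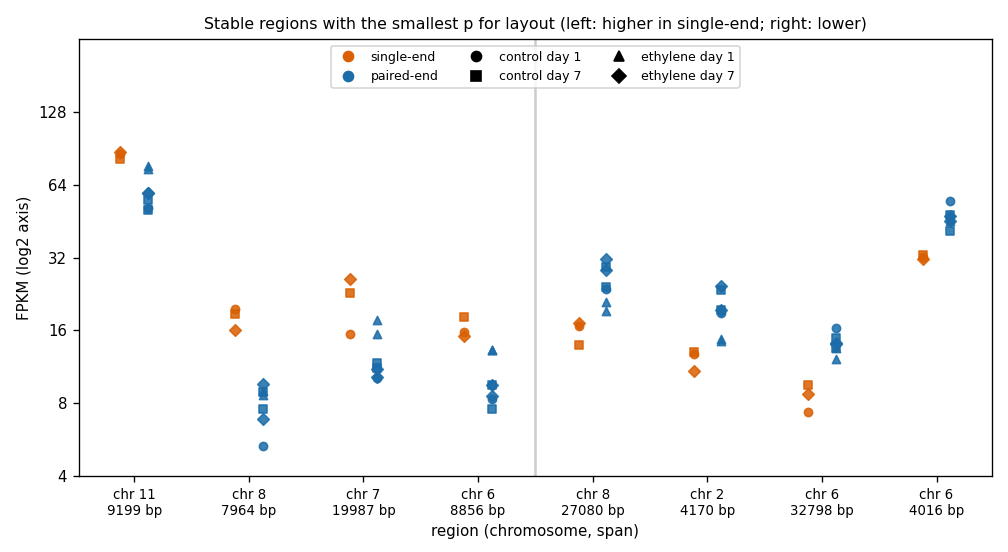
FPKM (log2 axis) of the 8 stable regions with the smallest p for layout, 4 higher (left of the line) and 4 lower in single-end libraries, with 1 symbol per library, orange for single-end and blue for paired-end, and shapes for the 4 groups. The orange and blue symbols overlapped in the region of 19987 bp on chromosome 7 and were apart in the other 7.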

How the data were processed

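Pulp RNA was sequenced in 10 libraries. The authors, in the methods and processing notes, checked reads with FastQC 0.11.8, trimmed them with Trimmomatic 0.38.0, mapped them with TopHat to the *Musa balbisiana* DH PKW genome and quantified loci with Cufflinks. The deposited tables, 1 for each library, hold FPKM as the authors' quantification wrote it, beside its bounds and a status per locus. No source used here gives the strand and multi-mapping options. The tables hold no fragment counts, so the precision that counts would give each value is not known. The study reports total reads and the percentage mapped for each library. That percentage was lower in every single-end library than in any paired-end one, and its part in the layout differences was not tested.

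Loci of at least 300 bp were pooled over the tables, overlapping ones were merged, and FPKM was summed per library. A sum over loci of different lengths is not a level per length of 1 transcript, and a merged region can join neighbouring genes. Values were analysed as log2(FPKM + 1), with the SD within groups pooled over the 4 groups. Two-sided limma tests (limma 3.58.1, R 4.3.3) with a variance trend were run on the 16821 regions whose mean FPKM reached 1, with Benjamini-Hochberg adjustment within each contrast. Layout was fitted with group as a covariate. The code was tested on simulated data.

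The members and lists were chosen with earlier results of these data known. Regions are named for the 6 closest group means, 3 on each side of the limit, the 3 highest and 3 lowest mean FPKM, the 3 smallest and 3 largest SD, and the 4 smallest p for layout in each direction. Annotated genes listed in all tables and loci inside members were added after seeing the tables. RefSeq spans matched the tables on 9 chromosomes (at least 94.3% of gene spans on each) and were used there only for locus tags and gene models; the table gives no products or sequences, so the planned gene classes and promoter motifs were not run. The alternatives were other pseudocounts, filters, scalings, limits and minimum lengths, each library left out, paired-end libraries alone, layout as a term and a replicate block.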

Additional observations from a re-analysis of the deposited data

How the results depend on the processing

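The list held 926 regions with a pseudocount of 0.1 and 1495 with 5, 1055 with median-of-ratios scaling and 1064 with quantile normalization. These lists shared 926, 1018, 632 and 828 regions with the 1018 described here. Paired-end libraries alone gave 868 regions, of which 588 (57.8% of the 1018) were shared. With 1 library left out the list held 826 to 1003 regions, of which 702 to 916 were shared. A limit of 0.3 gave 520 regions, one of 0.5 gave 1590, and a rule of less than 1 between the highest and lowest of the 10 libraries gave 1978, which shared 805 with the list. In all, 261 of the 1018 regions stayed whichever library was left out, and 179 of them also stayed under both other scalings.

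The number of members called for ethylene on day 1, 0 as reported, became 53 with median-of-ratios scaling, 19 with quantile normalization, 13 without the filter on low values, 26 with paired-end libraries alone, 16 with layout as a term, and 0 to 8 with a library left out. For ethylene on day 7 the number became 2 with quantile normalization (2627 of all regions), 3 without the filter (2405 of 27929) and 2 with layout as a term (3194). It was 0 to 1 with a day 7 library left out (1344 to 1990). For day 7 against day 1 in control fruit it was 0 with a day 7 library left out (111 to 190 of all regions). In ethylene-treated fruit it became 10 with median-of-ratios scaling (4568), 9 with quantile normalization (3853), 8 without the filter (4430 of 27929) and 6 with layout as a term (4772).

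The 18 members called for layout (302 of all 16821) became 24 with a pseudocount of 5 (387) and 12 with one of 0.1 (215). The number was 23 with a mean FPKM of at least 5 (268 of 11562) and 15 with quantile normalization (238). It was 11 with median-of-ratios scaling (200) and 10 without the variance trend (243). Without the filter 2 were called (67 of 27929), and 0 to 7 with a day 7 library left out (38 to 127). Libraries with the same letter did not all deviate together (r from −0.0410 to 0.332 over regions), so letters and numbers were not taken as pairs. With a replicate block by letter or by number 0 members and 2 of 16821 regions were called for layout, and 0 members in each of the 4 group contrasts, where 116 to 7353 of all regions were called. The cause of these changes was not tested. Loci inside members with group means at least 1 apart, with alternatives chosen after seeing the data, numbered 61 and 9 with pseudocounts of 0.1 and 5 instead of 23. Also added after seeing the data, the share of members among regions under 2.5 kb was 1.26% to 7.91% over the alternatives and that among regions of 50 kb or more 9.27% to 27.2%. Precision was limited by 2 or 3 libraries per group, by loci assembled separately in each table, and by tables without fragment counts.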
